A study of Mus musculus with 3 samples.

Results

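The miR-23, miR-27 and miR-24 clusters are a pair of paralogous microRNA (miRNA) loci, and their mature products were taken here by name from the deposited table: miR-23a-3p, miR-23a-5p, miR-23b-3p, miR-23b-5p, miR-27a-3p, miR-27a-5p, miR-27b-3p, miR-27b-5p and miR-24-3p. All 9 were found among 1251 listed miRNAs. Small RNA was sequenced from visceral white fat, the epididymal depot, of C57BL/6J mice labelled VIS-EPA, here mouse 1, mouse 3 and mouse 9. The mice were 5 to 6 weeks old at the start and ate for 11 weeks a high-fat diet with 45% of energy from fat, 20% from protein and 35% from carbohydrate, supplemented with 6.75% EPA (eicosapentaenoic acid, a long-chain omega-3 fat of marine origin). Tissue was taken after a fast of 4 hours. All 3 mice had the same treatment and no control diet was analysed here, so none of the values below is an effect of EPA. That the samples are separate animals rests on their titles and on the protocol's count of 3 per group, so the p-values cover the spread among these samples alone, and that spread may be technical. The deposited columns also hold nearly a common set of values, which may have narrowed the spread behind the SEs and p-values below.

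A miRNA is cut from a hairpin into a 5p and a 3p arm, and the arm that is kept pairs with messenger RNAs through its seed, bases 2 to 8. The miR-23, miR-27 and miR-24 hairpins lie in a row at each locus and are made from a shared primary transcript. miR-27 represses PPARgamma, the master transcription factor of adipocytes, and Prdm16, a factor of browning. miR-23 is known for repressing glutaminase, and miR-24 for repressing cell-cycle genes.

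The mature sequences below are shown because the pair of miR-27 3p products, which leads the results, differs in so little. They are from RefSeq (GRCm38.p6), written 5′ to 3′ with the seed in capitals. RefSeq entries matched 8 of the 9 members, the other being miR-23b-3p.
miR-23a-3p: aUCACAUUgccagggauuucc
miR-27a-3p: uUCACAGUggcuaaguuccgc
miR-27b-3p: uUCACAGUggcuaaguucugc
miR-24-3p: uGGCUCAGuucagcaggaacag
miR-27a-5p: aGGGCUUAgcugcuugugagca
miR-27b-5p: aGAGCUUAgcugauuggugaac
miR-23a-5p: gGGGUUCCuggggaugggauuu
miR-23b-5p: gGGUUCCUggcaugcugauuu
miR-27a-3p and miR-27b-3p share their seed and are identical at 20 of 21 bases. Their only difference is C19U, counted from the 5′ end with the base of miR-27a-3p first, so reads of the pair are told apart by a single base near the 3′ end. How many mismatches the authors' mapping allowed is not stated in any source used here. The 5p arms are less alike, with 14 of 22 bases identical and the difference G3A inside the seed, so the 5p arms of miR-27a and miR-27b have different seeds. Among all mature sequences in the RefSeq table, no other had the seed of the miR-27 3p products. The seed of miR-24-3p was shared by miR-5124b, miR-6369, miR-6410 and miR-6413, which stood at the floor in every mouse.

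The hairpins of miR-27 and miR-24 are shown because the arms they release were measured at very different levels. Capitals mark the mature arms, 5p first.
Mir27a: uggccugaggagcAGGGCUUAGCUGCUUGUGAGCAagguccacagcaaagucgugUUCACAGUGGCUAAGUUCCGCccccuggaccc
Mir27b: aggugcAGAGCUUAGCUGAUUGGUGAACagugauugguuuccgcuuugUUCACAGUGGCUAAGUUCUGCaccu
Mir24-2: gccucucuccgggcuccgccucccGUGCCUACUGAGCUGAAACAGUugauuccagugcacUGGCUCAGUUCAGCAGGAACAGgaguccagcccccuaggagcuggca
Mir24-1: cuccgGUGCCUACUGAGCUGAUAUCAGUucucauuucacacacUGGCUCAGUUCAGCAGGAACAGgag
On mouse assembly GRCm38 (mm10) the a cluster covers 404 bases of the plus strand of chromosome 8, with Mir23a at chr8:84208518-84208592, Mir27a at chr8:84208672-84208758 and Mir24-2 at chr8:84208815-84208921. In GENCODE M21 no other gene overlaps Mir23a or Mir27a, and the end of Mir24-2 overlaps the start of the exon of the long noncoding RNA Gm26532. The b cluster covers 792 bases of the plus strand of chromosome 13, with Mir23b at chr13:63300484-63300557, Mir27b at chr13:63300712-63300784 and Mir24-1 at chr13:63301208-63301275. It lies within 2010111I01Rik, the gene of aminopeptidase O, on the same strand, and within Fancc on the other strand. Mir23b is intronic there, Mir27b overlaps an exon of 1 transcript of 2010111I01Rik, and Mir24-1 overlaps exons of 4. miR-24-3p has the same sequence in both hairpins, so its single row cannot be assigned to a locus.

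The fat held the 3p products of both clusters at high levels and their 5p products at low levels or at the floor. Levels are given as deposited, log2 of a normalized count plus a constant, whose floor of 3.32 is a linear value of 10. A miRNA counted as seen when it stood above it.
Of the 9 members 7 were seen in all 3 mice, against a background of 22.9% of all 1251 miRNAs, and the other two, miR-23a-5p and miR-23b-5p, stood at the floor in every mouse. The filter used for tests, a mean normalized count of 100 or more, was passed by 5 members, the 3p products. Together the 9 members took 2.43%, 2.38% and 2.41% of the summed normalized value of mice 1, 3 and 9. The median level of all 9 was 10.85 log2 units, while that of all 1251 miRNAs was the floor of 3.32.

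miR-27b-3p, which represses PPARgamma, was the highest member, at 15.02, 15.16 and 15.02 log2 units in mice 1, 3 and 9. It held rank 17, 16 and 17 in these mice and 1.43% ± 0.0809 of the summed value (SD, n = 3). Its share of the value of all 9 members was 56.9%, 63.9% and 57.3%, so it outweighed the other members put together in each mouse. miR-23a-3p came next, at 13.51, 13.09 and 13.51 log2 units, with mouse 3 the lowest. It took 0.443% ± 0.0708 of the summed value.

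miR-27a-3p, the paralog with the same seed as miR-27b-3p, stood at 12.40, 12.40 and 12.50 log2 units. miR-23b-3p stood at 12.59, 12.25 and 12.34, and these ranges overlapped. Their shares were 0.230% ± 0.00990 and 0.224% ± 0.0276 (SD, n = 3). miR-24-3p was the lowest of the 3p products although 2 loci encode it, at 10.87, 10.70 and 10.99 log2 units and a share of 0.0768% ± 0.00757.

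The 5p arms of miR-27 were seen at far lower levels. miR-27b-5p was at 6.81, 5.20 and 6.68 log2 units in mice 1, 3 and 9, lowest in mouse 3, and miR-27a-5p was at 4.53, 5.92 and 6.13, lowest in mouse 1. Their ranges overlapped and neither passed the filter. In linear terms they averaged 73.9 and 41.2 normalized counts, beside 34375 for miR-27b-3p.

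The order of the 7 members seen was miR-27b-3p, miR-23a-3p, miR-27a-3p, miR-23b-3p, miR-24-3p, miR-27b-5p and miR-27a-5p. Neighbours kept this order in 3 of 3 mice, with ranges that did not overlap, except for miR-27a-3p over miR-23b-3p (2 of 3) and miR-27b-5p over miR-27a-5p (2 of 3). The mean difference in level was 0.04 ± 0.20 log2 units for the first of these pairs and 0.71 ± 1.51 for the second (SD, n = 3), so neither pair could be ordered against the spread between mice.

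**Figure D1:**
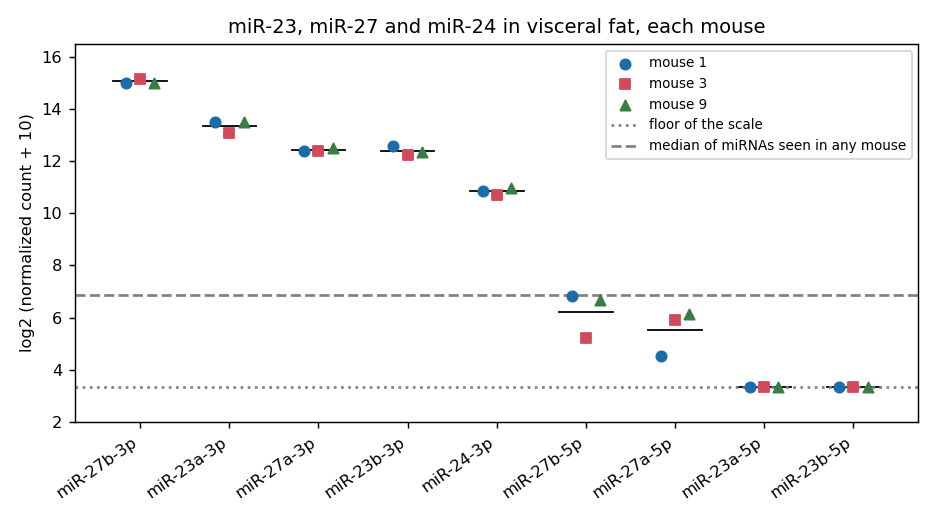
Level of each member (log2 of normalized count plus 10) in mouse 1 (circles), mouse 3 (squares) and mouse 9 (triangles), with black lines at the mean, a dotted line at the floor and a dashed line at the median of miRNAs seen in any mouse. The 3p products lie between 10.70 and 15.16, the miR-27 5p arms between 4.53 and 6.81, and the miR-23 5p arms at the floor of 3.32.

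Products of 1 cluster, which share a primary transcript, were not at equal levels, and miR-23 and miR-27 stood in opposite order at the 2 loci. At the chromosome 8 locus miR-23a-3p was above miR-27a-3p, the difference of miR-27a-3p minus miR-23a-3p running from -1.11 log2 units in mouse 1 to -0.69 in mouse 3, with mouse 9 between them. At the chromosome 13 locus miR-27b-3p was above miR-23b-3p, by 2.43, 2.91 and 2.68 log2 units. The means were -0.93 ± 0.22 and 2.67 ± 0.24 (SD, n = 3).

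miR-24-3p stood below every other 3p member in each mouse. The difference of miR-24-3p minus its cluster mate averaged -2.51 ± 0.13 for miR-23a-3p, -1.58 ± 0.10 for miR-27a-3p, -1.54 ± 0.18 for miR-23b-3p and -4.21 ± 0.22 for miR-27b-3p (SD of log2 differences, n = 3). All 6 differences within clusters had 1 sign in 3 of 3 mice. The exact two-sided sign-flip p was 0.25 for each, also after Benjamini-Hochberg adjustment over the 6, which is the smallest p that this test can give with 3 mice, so it could not pass a threshold of 0.05. Differences between miRNAs also carry any unequal capture of their sequences during library preparation, whose part was not tested.

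**Figure D2:**
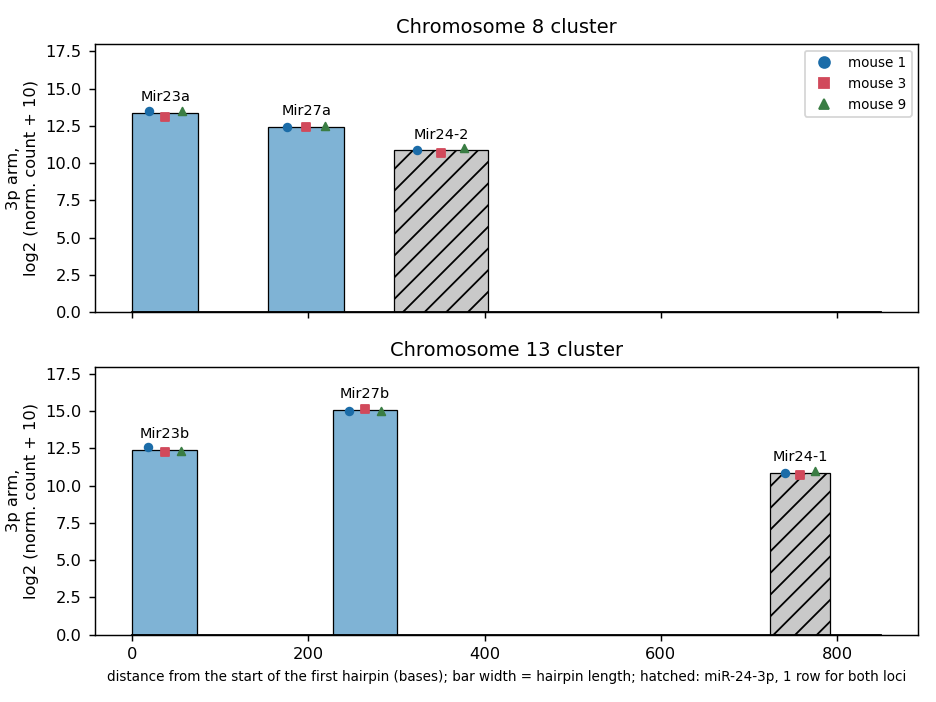
Hairpins of the chromosome 8 cluster (upper) and the chromosome 13 cluster (lower), drawn to scale by distance in bases from the start of the first hairpin, with bar height the mean level of the 3p arm (log2 of normalized count plus 10) and points the 3 mice. miR-23 is the higher of the first 2 hairpins on chromosome 8 and miR-27 on chromosome 13, and the hatched bars repeat the single miR-24-3p row.

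Between loci the paralogs also differed in opposite directions. miR-27b-3p was above miR-27a-3p by 2.62, 2.76 and 2.52 log2 units in mice 1, 3 and 9, and miR-27b-3p made up 86.1%, 87.2% and 85.1% of their summed value. miR-23b-3p was below miR-23a-3p, the difference being -0.92, -0.83 and -1.17 log2 units, and made up 34.6%, 36.0% and 30.8% of their sum. The miR-27 rows are separated by C19U alone.

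Both differences passed limma's moderated test with Benjamini-Hochberg adjustment over the 93 paralog pairs of the table that differ in letter and passed the filter. miR-27b-3p minus miR-27a-3p was 2.63 log2 units (SE 0.09, adjusted p = 0.000124, positive in 3 of 3 mice). miR-23b-3p minus miR-23a-3p was -0.97 (SE 0.10, adjusted p = 0.00235, negative in 3 of 3). Of all pairs tested 88.2% passed, so a difference was the rule among these pairs. In 9 of the 93 pairs 1 row was at the floor throughout, so those rows had to differ. The pairs also overlap, since families such as let-7 enter with many pairings. Without the filter 64.3% of 154 pairs passed. By size the miR-27 pair ranked 47 of 93, at the median size of 2.63, and the miR-23 pair ranked 74. miR-27b-5p and miR-27a-5p were outside that test. Without the filter on level, their difference of 2.29, -0.72 and 0.55 log2 units in mice 1, 3 and 9 did not pass (limma, adjusted p = 0.445 over 154 pairs).

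**Figure D3:**
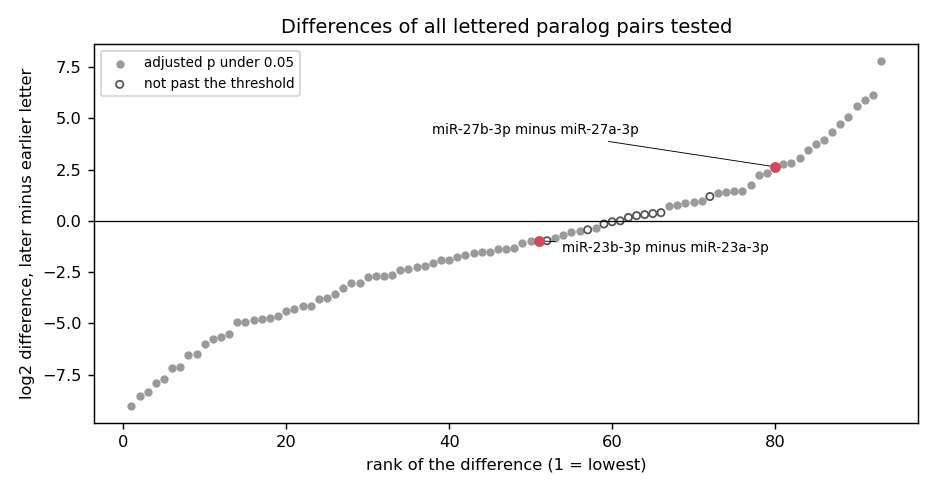
Log2 difference between lettered paralogs of the same arm (later minus earlier letter, mean of 3 mice) for the 93 pairs tested, ordered from lowest to highest, with open circles for pairs not past an adjusted p of 0.05. The miR-27 pair (2.63) and the miR-23 pair (-0.97) are in red with their SE.

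Summed by locus, the miR-23b and miR-27b rows took 1.64%, 1.73% and 1.60% of the normalized value in mice 1, 3 and 9, and the miR-23a and miR-27a rows 0.708%, 0.587% and 0.727%. The chromosome 13 sum was the larger in each mouse. Summed by name, the miR-27 3p pair took 1.66% ± 0.0764 and the miR-23 3p pair 0.667% ± 0.0918 (SD, n = 3).

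The 3p arm was the higher one in each of the 4 member hairpins with both arms listed under 1 name. For miR-27b the difference of 5p minus 3p was -8.21, -9.96 and -8.35 log2 units in mice 1, 3 and 9, and for miR-27a it was -7.87, -6.48 and -6.37. The 3p arm was therefore far above the 5p arm in every mouse. On the deposited scale the difference was the larger for miR-27b in each. In mouse 1 that order depends on the added constant of 10. Normalized counts there were 13.1 and 5389 for the miR-27a arms (5p, 3p) and 103 and 33252 for the miR-27b arms. Without the constant the difference in mouse 1 was the larger for miR-27a. By limma's moderated test with Benjamini-Hochberg adjustment over 129 hairpins, the mean was -8.84 for miR-27b (SE 0.41, adjusted p = 3.37e-05) and -6.91 for miR-27a (SE 0.36, adjusted p = 4.84e-05), each negative in 3 of 3 mice. Neither 5p arm passed the filter, so both hairpins entered this test through the 3p arm alone and a higher 3p arm was built in. Without the filter limma gave adjusted p = 0.000106 for miR-27b and 0.000143 for miR-27a over 202 hairpins.

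miR-23a-5p and miR-23b-5p are listed at the floor in every mouse, and their hairpins passed the filter through the 3p arm alone, so that the arms had to differ. For these hairpins the 3p arm is described as the only one seen, with no ratio and no test. A higher 3p arm was called in 45.7% of the 129 hairpins and a difference in either direction in 96.9%, with 47 of the 129 having 1 arm at the floor throughout. Among the 38 hairpins with a higher 3p arm and both arms seen, the median was -3.89 log2 units, closer to equal than either miR-27 hairpin. By size over all 129, those with an arm at the floor included, miR-27b ranked 17 and miR-27a ranked 41. The median size of the 129 was 5.14.

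**Figure D4:**
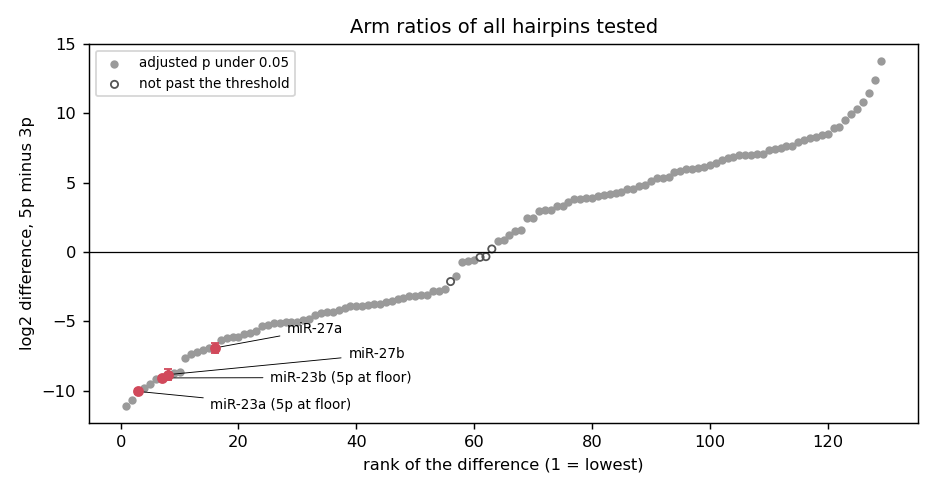
Log2 difference of 5p minus 3p (mean of 3 mice) for the 129 hairpins tested, ordered from lowest to highest, with open circles for hairpins not past an adjusted p of 0.05. The member hairpins, in red with their SE, lie at the 3p end, and the places of miR-23a and miR-23b depend on the floor of the scale because their 5p arms were not seen.

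The miR-24 hairpins stood apart from these in that a 5p arm was well above the floor. miR-24-2-5p, from the chromosome 8 locus, was at 9.31, 9.42 and 10.08 log2 units in mice 1, 3 and 9. Its counterpart miR-24-1-5p, from the chromosome 13 locus, stood at the floor in all 3. The arms are shown because they share their first 16 bases and their seed and differ only toward the 3′ end.
miR-24-2-5p: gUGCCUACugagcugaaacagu
miR-24-1-5p: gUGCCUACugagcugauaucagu
The level of miR-24-3p minus that of miR-24-2-5p was 1.56, 1.29 and 0.91 log2 units, 1.25 ± 0.33 on average (SD, n = 3). This pair was not in the arm test, because miR-24-3p comes from 2 hairpins while miR-24-2-5p comes from 1. The opposite strand of each miR-24 hairpin carries an annotated Mir3074 hairpin, whose miR-3074-5p overlaps miR-24-3p by 20 bases. miR-3074-5p was at the floor in mice 1 and 3 and at 3.83 in mouse 9. miR-3074-1-3p and miR-3074-2-3p were at the floor in every mouse.

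The levels of the 3p members differed little between mice. The SD over 3 mice was 0.06 log2 units for miR-27a-3p, 0.08 for miR-27b-3p, 0.14 for miR-24-3p, 0.17 for miR-23b-3p and 0.24 for miR-23a-3p. The median SD of these 5 was 0.14, beside 0.22 for all 194 miRNAs past the filter and 0.19 for the 100 of highest level. Without mouse 3 it was 0.0751, beside 0.165 for all miRNAs past the filter. Ordered from the smallest SD, miR-27a-3p was at place 12, miR-27b-3p at 20, miR-24-3p at 54, miR-23b-3p at 74 and miR-23a-3p at 105 of 194. The columns hold nearly a common set of values, 85 of the top 100 ranks being equal in the 3 mice within 1e-06, and equal entries such as 15.02 for miR-27b-3p in mice 1 and 9 are equal ranks. The miR-27 5p arms, nearer the floor, had SDs of 0.87 for miR-27a-5p and 0.89 for miR-27b-5p.

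**Figure D5:**
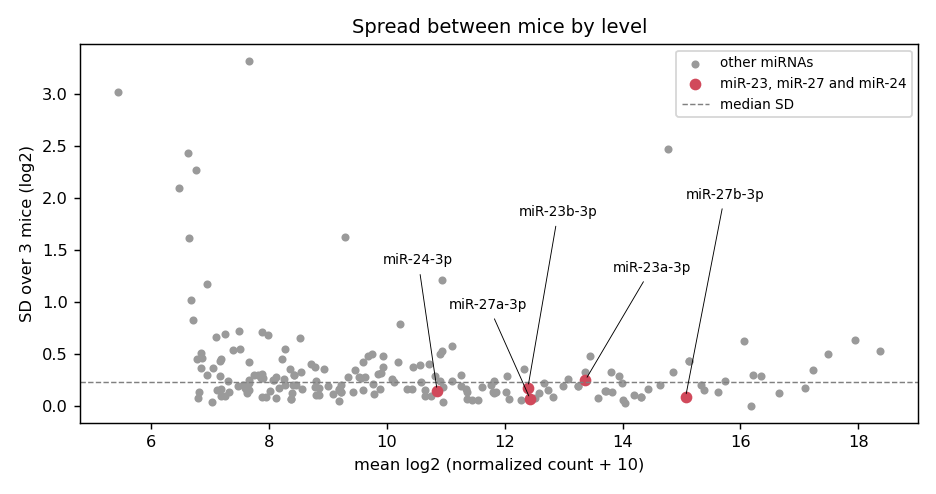
SD over 3 mice against the mean level (both in log2 units) for the 194 miRNAs past the filter of 100 normalized counts on the mean, with a dashed line at the median SD of 0.22. miR-24-3p, miR-23b-3p, miR-27a-3p and miR-27b-3p lie below the line and miR-23a-3p just above it.

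miR-128-3p, a neuronal and lymphoid miRNA, has a seed that overlaps that of miR-27. Its sequence is shown because its seed, CACAGUG, is found at bases 3 to 9 of miR-27b-3p.
miR-128-3p: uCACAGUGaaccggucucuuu
It was at 7.64, 8.60 and 8.56 log2 units in mice 1, 3 and 9, lowest in mouse 1, and miR-27b-3p exceeded it by 6.80 ± 0.50 (SD, n = 3).

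Beside other miRNAs tied to repression of PPARgamma or of adipocyte differentiation, miR-27b-3p had the highest level. Of the 14 others in the list 11 were seen in all mice, against the background of 22.9%, and miR-301b-3p, miR-155-5p and miR-33-5p stood at the floor. The median of the 14, those at the floor included, was 7.96 log2 units, beside 6.86 for the 363 miRNAs seen in at least 1 mouse. miR-145a-5p followed miR-27b-3p, at 14.31, 14.18 and 14.11 in mice 1, 3 and 9, and then came miR-125b-5p at 13.84, 13.94 and 13.69. miR-130a-3p, which also targets PPARgamma messenger RNA, was at 11.88, 12.07 and 12.12, close below miR-27a-3p in each mouse. Its paralogs were low, with a mean of 5.53 for miR-130b-3p and 4.71 for miR-301a-3p. miR-31-5p varied most in the list, at 5.78, 8.50 and 5.64 log2 units, high in mouse 3.

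By distance over the 3 log2 values, the miRNA closest to miR-23b-3p was miR-27a-3p (0.29), and miR-23b-3p was the third closest to miR-27a-3p after let-7e-5p (0.15) and miR-100-5p (0.16). let-7d-5p (0.46), miR-127-3p (0.46) and miR-151-5p (0.54) were closest to miR-23a-3p. let-7f-5p (0.50), miR-125a-5p (0.62) and miR-99b-5p (0.67) were closest to miR-27b-3p, and miR-222-3p (0.19), miR-484 (0.21) and miR-139-5p (0.24) to miR-24-3p. With 3 mice this distance mostly measures a like mean level.

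miRNAs typical of the labelled tissue were high: all 5 of an adipocyte list, among them miR-143-3p and miR-378a-3p, were seen in every mouse, with a summed share of 10.2% to 14.0%. Markers of other cells were present too. All 3 endothelial miRNAs, miR-126-3p included, were seen in each mouse (summed share 0.688% to 0.957%), as were 4 of 5 leukocyte miRNAs (0.409% to 0.455%). Striated muscle miRNAs ranged from 0.163% in mouse 1 to 3.57% in mouse 3, nearly all of it miR-133a-3p. Only 2 of the 4 were seen in every mouse. miR-1a-3p was at 3.32, 5.53 and 3.44 log2 units in mice 1, 3 and 9, and miR-206-3p was at the floor in 2 mice, so the list was not uniform. Erythroid miRNAs, 2 of 3 seen in every mouse, ranged from 1.38% to 2.38%, mostly miR-486-5p. Epithelial ones, 2 of 5 seen in every mouse, ranged from 0.000681% in mouse 9 to 0.0268% in mouse 3. Of the 3 testis miRNAs, miR-34b-5p and miR-449a-5p stood at the floor in every mouse, while miR-34c-5p was at 7.83, 7.64 and 7.54 log2 units in mice 1, 3 and 9. The clusters are expressed in several of these cell types, and in whole tissue more cells of a type and more RNA per cell cannot be told apart. The members' summed share was between 2.38% and 2.43% in these mice. Because the columns hold nearly a common set of values, that narrow range says little about cell mix. The part of each cell type in the members' levels was not tested.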

How the data were processed

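The table the authors deposited gives 1 log2 value for each of 1251 mature miRNAs in each of 3 mice. The design text of the series states the Gunaratne pipeline, mapping to mouse build mm10 (also per the submitters' processing notes), scaling of counts by total usable reads and an added constant of 40. The lowest value is 10 on the linear scale, so the constant here is 10. No source used here names the aligner, the miRNA annotation or how reads with several sites were treated. Near-equal sorted columns make a difference between mice in essence one of ranks. Library depth is unknown, so no counting error is given.

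Linear values are the power of 2 minus 10. Of 425 hairpins with both arms listed and 565 pairs of lettered paralogs, those whose higher row averaged at least 100 were tested with limma 3.58.1 in R 4.3.3 (moderated one-sample test, two-sided, no trend, Benjamini-Hochberg, threshold 0.05). Cluster mates were compared by exact sign-flip tests. Python 3.11.15 was used, with random seed 11. On simulated differences of 3 log2 units the arm test recovered 63 of 64 among 129 hairpins with 1 false call, and the paralog test 46 of 46 among 93 pairs with 2. The simulated noise was normal and independent between mice, with no arm held at the floor and no common set of column values. Recovery of smaller differences, such as the -0.97 of the miR-23 paralogs, was not tested. Named miRNAs were the members, other rows of the loci, rows with a member's seed, a list of differentiation repressors, marker lists and the 3 miRNAs nearest in level to each 3p member. Members and lists were chosen with earlier results of these data known. Alternatives were a pseudocount of 1 or 40, other filters (none, or a mean of 1000), a trended prior, median-ratio scaling and leaving out each mouse. Positions are from GENCODE M21 and RefSeq, which gave the same hairpin ends.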

Additional observations from a re-analysis of the deposited data

How the results depend on the processing

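The arm calls of miR-27a and miR-27b and both paralog calls kept their direction and stayed past the threshold under all 8 alternatives tried for each. By limma with Benjamini-Hochberg adjustment, the adjusted p ranged from 4.08e-06 to 0.0076 for the miR-27a arms and from 4.08e-06 to 0.0015 for the miR-27b arms. Wherever a filter was used, the miR-27 hairpins passed it through the 3p arm alone, so a higher 3p arm was built in there. The miR-23 arms, with 5p at the floor throughout, say nothing of stability. The adjusted p by limma ranged from 4.29e-05 to 0.0064 for the miR-27 paralogs and from 0.00142 to 0.0227 for the miR-23 paralogs. None of the 7 levels moved by over 1 SD under the 6 alternatives run for them (42 values), and the 6 differences between cluster mates kept their sign under another pseudocount and without any mouse. Median-ratio scaling cancels in differences within a mouse and was not run for them. A pseudocount of 40 moved the members' summed share to 2.37%. Leaving out 1 mouse gave a median SD of the 3p members from 0.0751 to 0.117, the lowest without mouse 3. With a filter of 1000 fewer hairpins could be tested, and all 67 were called in place of 125 of 129. Without a filter the share called was 64.3% of 154 paralog pairs and 77.7% of 202 hairpins. No comparison between groups was possible because there is 1 group, and all tests were on differences within a mouse. Unknown depth limits the 5p arms most: a row at the floor was not detectable, and its absence is not shown.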
